A study of Mus musculus with 10 samples.

Results

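The genes examined were the Toll-like receptor genes *Tlr1*, *Tlr2*, *Tlr3*, *Tlr4*, *Tlr7*, *Tlr9* and *Tlr13*, the co-receptor genes *Cd14* and *Ly96*, and the adaptor gene *Myd88*. The rule takes them by gene symbol and uses no measured value, and they are 10 of the 18292 gene symbols listed in the count tables of 10 single cell libraries of mouse microglia. A gene missing from a table was counted as 0, and no symbol of the 10 was listed more than once. Each library was made from C57BL/6 cells sorted as CD11b high and CD45 intermediate with the 10x Genomics 3′ kit v2, which counts unique molecular identifiers (UMIs) per gene and cell. There were 5 groups of 2 libraries. Adult microglia were isolated from adult brain, *in vitro* microglia were collected from the medium of mixed glial cultures of neonatal cortices after 3 weeks, and slice microglia came from organotypic brain slices of newborn pups kept in culture for 1 day, 1 week or 3 weeks. No label names an inflammatory treatment. The slice medium held horse serum and PDGF, and the medium of the mixed glial cultures held horse and bovine serum. Adult microglia therefore differed from the other groups in the age of the animals at dissection as well as in culture, and these cannot be told apart here.

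Toll-like receptors bind conserved molecules of microbes and of damaged cells. TLR2, which pairs with TLR1 or TLR6, and TLR4 act at the cell surface, where TLR4 works with the secreted protein MD-2 (encoded by *Ly96*) and with CD14 to bind lipopolysaccharide. TLR3, TLR7, TLR9 and TLR13 sit in endosomes and bind nucleic acids, and all of these receptors except TLR3 can signal through the adaptor MYD88. Microglia, the resident macrophages of the brain, use this pathway to respond to infection and injury.

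As examples, stretches before the RefSeq start of *Myd88* and *Tlr13* are printed here, 5′ to 3′ on the strand of each gene, on build GRCm38.p6. Against adult, *Myd88* was called lower in *in vitro* and at 1 and 3 weeks, but not at slice 1 day. *Tlr13* was called higher in *in vitro* alone. The stretches are the parts of the 250 bases before the RefSeq start that lie outside the annotated exons of the gene. That of *Myd88* lies within the longer span that the GENCODE annotation gives this gene, so it is upstream of the RefSeq start only. The capitals in the *Myd88* stretch mark 2 copies of GAAA with any 2 bases between them, the form bound by interferon regulatory factors. Those in the *Tlr13* stretch mark GAGGAA, the core bound by PU.1. The stretches lie at chr9:119340042-119340268 on the minus strand and chrX:106143025-106143203 on the plus strand.
Myd88: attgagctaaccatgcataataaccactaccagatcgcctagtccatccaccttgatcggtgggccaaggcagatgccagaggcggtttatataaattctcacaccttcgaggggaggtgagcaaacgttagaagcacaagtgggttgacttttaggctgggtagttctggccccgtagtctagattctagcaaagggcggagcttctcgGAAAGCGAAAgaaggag
Tlr13: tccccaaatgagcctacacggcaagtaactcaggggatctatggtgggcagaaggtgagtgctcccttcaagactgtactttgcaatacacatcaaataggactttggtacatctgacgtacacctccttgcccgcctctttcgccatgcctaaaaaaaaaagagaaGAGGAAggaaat

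Such stretches are reported for 6 of the 10 members, and both strands of the 250 bases before the RefSeq start were searched for 4 motifs. This GAAA pair was found before *Myd88*, 40 to 31 bases from the start, and in 2.98% of all 32851 promoters. GAGGAA was found before *Tlr1*, *Tlr9* and *Tlr13* and in 23.3% of all promoters. TGANTCA, the AP-1 site, was found before *Tlr9* and in 6.75% of promoters, and the NF-kB consensus before *Tlr2* and *Tlr3* and in 3.9%. A match describes the letters and does not show binding. The matches of *Myd88* and *Tlr3* lie before the RefSeq start but within the span that GENCODE gives each of these genes. *Tlr2* lies on chromosome 3 from 83836272 to 83841767, *Tlr3* on chromosome 8 from 45395665 to 45411080, *Tlr4* on chromosome 4 from 66827584 to 66930284, *Tlr7* on chromosome X from 167304929 to 167330558, *Ly96* on chromosome 1 from 16688051 to 16709611 and *Myd88* on chromosome 9 from 119335934 to 119341411 (GENCODE on GRCm38). Of the 10 members only *Myd88* shares bases with another gene on its own strand, *Slc22a14*, so that its counts could hold reads of that gene.

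After filtering, 19059 cells remained, between 61 (slice 1 week replicate 2) and 3799 (adult replicate 1) per library, with 385373 to 39689540 UMIs each. The median cell held 1858 UMIs in the shallowest library, adult replicate 2, and 13966 in the deepest, *in vitro* replicate 2. Of 19410 distinct barcodes, 226 were found in more than 1 library, at most 23 in a pair. All 10 microglial marker genes were detected in every library, but their summed level was 44991 and 45585 CPM (UMIs per 1000000 UMIs of the library) in the adult libraries, 4070 and 3387 in *in vitro*, 5969 and 5305 after 1 day, 10154 and 11719 after 1 week and 20159 and 16501 after 3 weeks. Markers of neutrophils, which the gate should exclude, summed to 7946 and 22839 CPM after 1 day and 40749 and 1033 after 1 week, against 22.9 to 212 CPM in the other 6 libraries. Markers of macrophages at the borders of the brain summed to 2270 and 2132 CPM in *in vitro*, against 5.74 to 316 elsewhere. Levels below are CPM scaled by edgeR's TMM factors, with mean ± SD over 2 libraries, except that those of cell classes within a library are unscaled CPM, that is UMIs per 1000000 UMIs of that class.

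Against adult microglia, *Tlr3* fell in all 4 cultured groups. *Tlr4* and *Ly96* fell in the 3 slice groups, *Tlr7* fell in slice 1 day, *Cd14* rose in slice 1 day and fell in *in vitro*, *Tlr2* rose in slice 3 weeks and *Tlr13* in *in vitro*, and *Myd88* fell in *in vitro* and at 1 and 3 weeks. A gene was called where edgeR gave an adjusted p under 0.05 and a fold change over 1.5, with all 12157 genes that passed the filter tested and adjusted together. All 10 members passed the filter. In *in vitro* microglia 1 of the 10 was called higher and 3 lower, where 22.4% and 28.5% of all genes tested were called. At slice 1 day 1 was called higher and 4 lower, beside 24.9% and 25.3% of all genes. At 1 week 0 were called higher and 4 lower, beside 15.0% and 13.6%, and after 3 weeks 1 was higher and 4 were lower, beside 17.9% and 17.5%. The median log2 fold change of the members was −0.46, −0.35, −0.45 and −0.62 in these 4 comparisons, and that of all genes −0.11, −0.06, −0.08 and −0.03. All 4 comparisons used the same adult libraries.

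**Figure D1:**
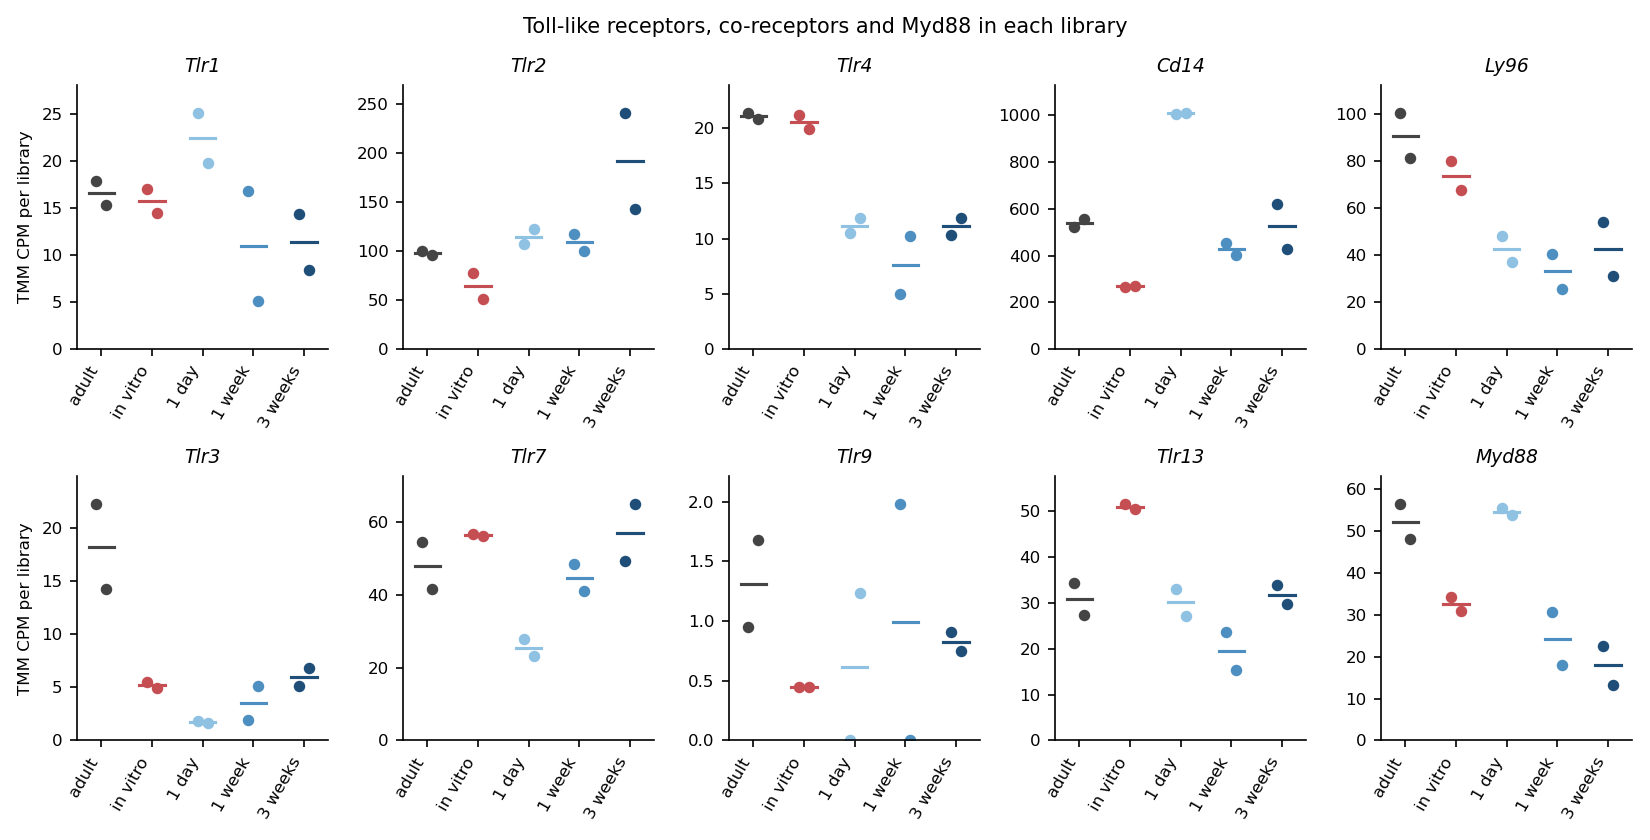
TMM-scaled CPM of each member (y axis, a linear scale that starts at 0 and differs between panels) in the 10 libraries, as points, with the mean of each group of 2 as a line. *Cd14* is highest in slice 1 day, *Tlr2* in slice 3 weeks and *Tlr13* in *in vitro*, while *Tlr3* is highest in adult.

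**Figure D2:**
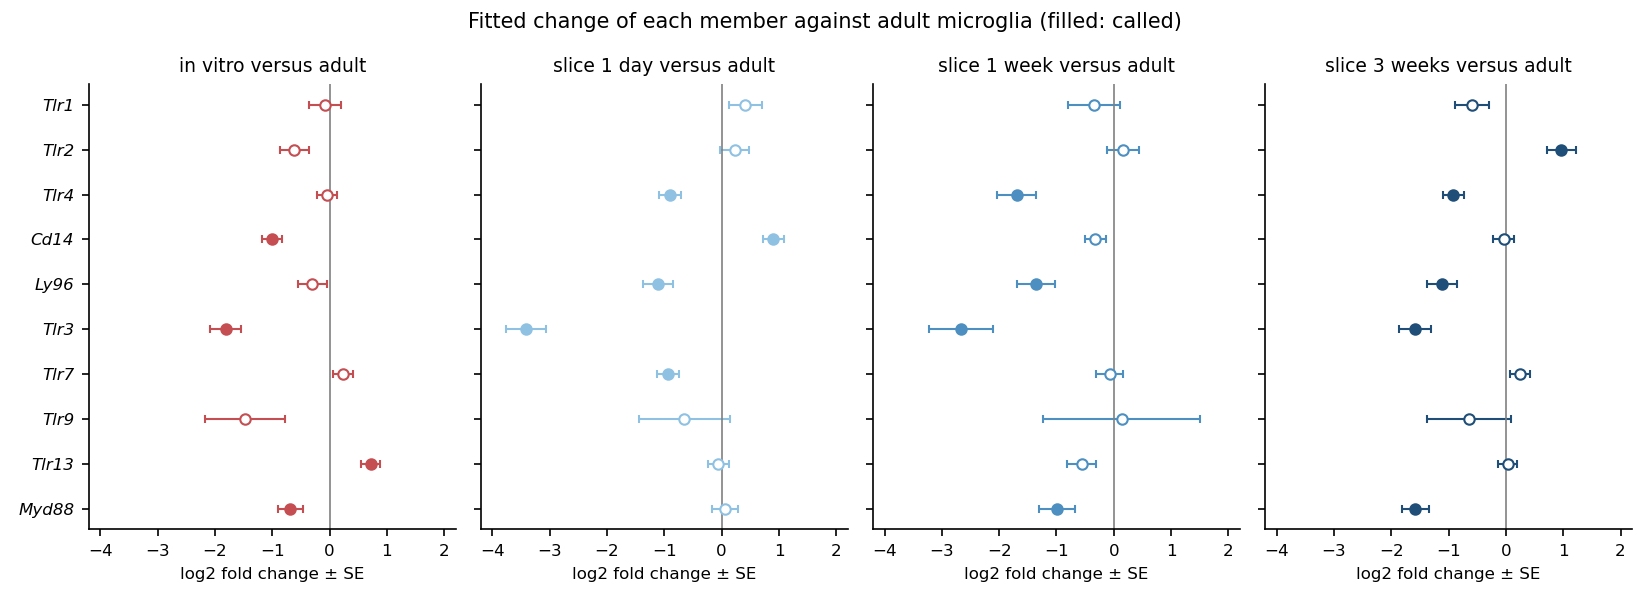
Fitted log2 fold change against adult microglia (x axis) with its SE, for each member in the 4 cultured groups, with filled points for called genes. *Tlr3* is called lower in every panel, *Tlr4* and *Ly96* in the 3 slice panels, and *Cd14* lower in *in vitro* and higher in slice 1 day.

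Between the cultured groups, 1 member was called higher and 1 lower after 1 week against 1 day, beside 4.91% and 5.25% of all genes. At 3 weeks against 1 day 3 were higher and 3 lower, beside 13.9% and 12.8%. At 3 weeks against 1 week edgeR called 0 of the 10, and 2 (*Tlr2* and *Tlr13*) had an unadjusted p under 0.05. DESeq2 also called 0. Among all genes edgeR called 2.23% higher and 3.49% lower. Of *in vitro* against slice 3 weeks 4 were higher and 2 lower, beside 13.3% and 19.9%, and of *in vitro* against slice 1 day 5 were higher and 3 lower, beside 13.3% and 18.6%.

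*Cd14* encodes the co-receptor that hands lipopolysaccharide to TLR4. Its level was 521 and 558 CPM in the adult libraries, 266 and 271 in *in vitro*, 1007 and 1011 in slice 1 day, 455 and 404 after 1 week, and 622 and 427 after 3 weeks. The day 1 libraries stood above all others and the *in vitro* libraries below all others, whereas the adult and 3 weeks libraries overlapped. With means of 1009 ± 2.50 CPM after 1 day and 540 ± 26.4 in adult, day 1 cells had a fitted log2 fold change of 0.90 (SE 0.18, edgeR adjusted p = 0.00173), or 1.87-fold. In *in vitro*, at 268 ± 3.12 CPM, it was −1.01 against adult (SE 0.18, edgeR adjusted p = 0.000787).

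After day 1 *Cd14* fell. The log2 fold change from 1 day was −1.23 after 1 week (SE 0.18, edgeR adjusted p = 0.00431) and −0.94 after 3 weeks (SE 0.18, edgeR adjusted p = 0.00368). Against adult the 1 week and 3 weeks groups had log2 fold changes of −0.33 and −0.04 and were not called (edgeR adjusted p = 0.206 and 0.883). *Cd14* was lower in *in vitro* than in slice 1 day, with a log2 fold change of −1.91 (SE 0.18, edgeR adjusted p = 4.85e-05) and lower than in slice 3 weeks, with −0.97 (SE 0.18, edgeR adjusted p = 0.00211). These levels are sums over the cells of a library, relative to all its UMIs, so that fewer cells with the transcript and less of it per cell cannot be told apart from them. Counted per cell, without scaling for depth, *Cd14* had 1.87 and 1.23 UMIs in adult cells and 3.43 and 3.60 in *in vitro*, so that the order of adult and *in vitro* was opposite to that of the CPM, with 7.42 and 9.67 after 1 day, 3.11 and 2.59 after 1 week and 4.17 and 2.45 after 3 weeks.

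The neutrophil markers were high in both day 1 libraries, so *Cd14* was read by cell class, in unscaled CPM, which are not on the scale of the library levels above. In slice 1 day replicate 1 the 68 cells with over 2% of their UMIs from neutrophil markers held 390 CPM of *Cd14*, and the 422 cells that were rich in neither neutrophil nor monocyte markers held 1126 CPM. In replicate 2 these values were 208 CPM in 110 cells and 1122 CPM in 859 cells, and in slice 1 week replicate 1 they were 210 CPM in 24 cells and 460 CPM in 123 cells. *Cd14* was thus lower in the neutrophil-rich cells of all 3 libraries. Without the neutrophil-rich cells the log2 fold change of slice 1 day against adult was 0.96 (SE 0.17, edgeR adjusted p = 0.000849). The cells rich in neither set of markers still held neutrophil markers at 692 and 4508 CPM in slice 1 day and 5810 CPM in slice 1 week replicate 1, against 22.9 to 212 CPM in the other 7 libraries, so that this class was not free of neutrophil RNA.

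To compare cells at 1 depth, each cell was thinned to 1500 UMIs and shallower cells were left out, 278 and 856 in adult, 4 of slice 1 day, 7 and 5 after 1 week and 0 elsewhere. A *Cd14* UMI was then found in 57.1% (95% exact binomial interval 55.5 to 58.8%) and 58.6% (56.7 to 60.5%) of adult cells, 23.3% (21.6 to 25.0%) and 23.4% (21.8 to 25.0%) of *in vitro* cells, and 42.6% (38.3 to 47.0%) and 51.4% (48.3 to 54.5%) of slice 1 day cells. At 1 week the shares were 33.3% (25.6 to 41.8%) and 32.1% (20.3 to 46.0%), and after 3 weeks 44.5% (41.6 to 47.4%) and 33.3% (31.8 to 34.9%). Cells with 6 or more *Cd14* UMIs made up 5.45% and 6.51% after 1 day, 0.114% and 0.225% of adult cells, 0.952% and 0.261% in *in vitro*, 0.709% and 0% after 1 week and 2.52% and 1.02% after 3 weeks. By the limit of 3 counts, the 0 of 56 cells in slice 1 week replicate 2 allows a share of up to 5.36%. Slice 1 day, whose mean level was above that of adult, thus had a smaller share of cells holding a UMI and a larger share holding 6 or more. These shares count all kept cells, of which 13.1% and 10.8% in slice 1 day were neutrophil-rich, against 0% in adult. Before thinning, *Cd14* was found in 41.2% and 66.4% of those neutrophil-rich cells. In the slice 1 day cells rich in neither set of markers it was found in 76.8% and 90.1%. Unthinned, a UMI was found in 69.9% and 86.8% of slice 1 day cells and 79.4% and 65.8% of adult cells. The intervals cover counting error only, and since the libraries held no sizeable class of cells known to lack *Cd14*, the share that free RNA gives was not measured.

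**Figure D3:**
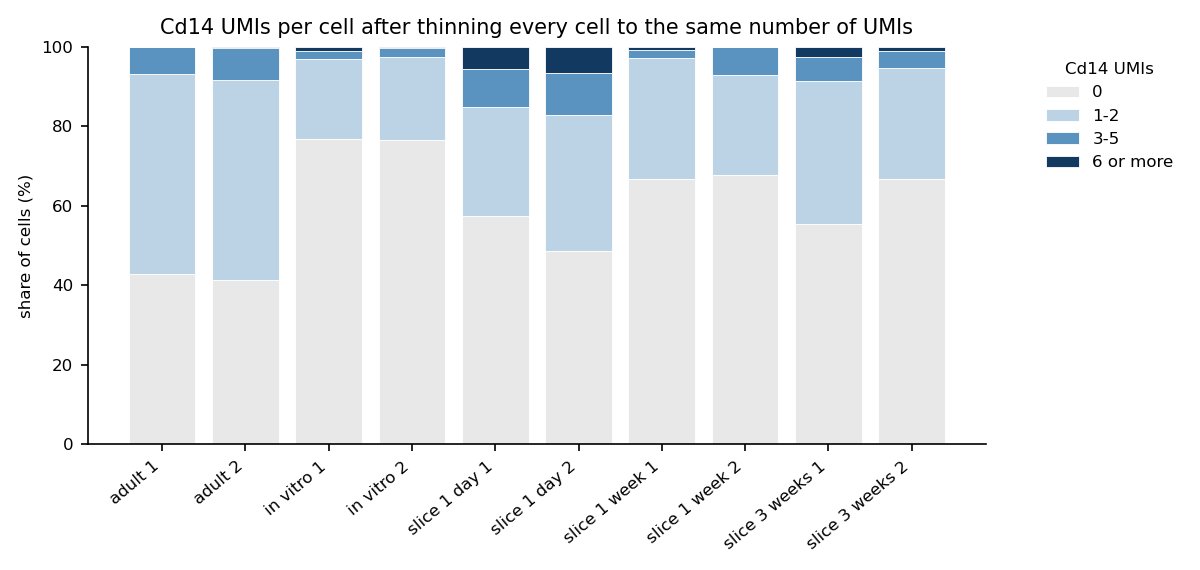
Share of cells (y axis, percent) with 0, 1 to 2, 3 to 5 or 6 or more *Cd14* UMIs after thinning each cell to 1500 UMIs, by library. The darkest segment, 6 or more UMIs, is tallest in the slice 1 day libraries, at 5.45% and 6.51% of cells.

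*Ly96* encodes MD-2, the subunit of the TLR4 receptor that binds lipid A. It stood at 100.4 and 81.1 CPM in the adult libraries, 80.1 and 67.4 in *in vitro*, 48.0 and 36.8 in slice 1 day, 40.5 and 25.6 after 1 week and 53.9 and 31.0 after 3 weeks. Every slice library was below every adult and *in vitro* library, and the slice groups overlapped with each other. The log2 fold change against adult was −1.11 after 1 day (SE 0.26, edgeR adjusted p = 0.00447), −1.36 after 1 week (SE 0.33, edgeR adjusted p = 0.0112) and −1.11 after 3 weeks (SE 0.26, edgeR adjusted p = 0.00614). In *in vitro* it was −0.30 (SE 0.25, edgeR adjusted p = 0.324) and was not called. The 1 day call was lost without slice 1 day replicate 2 (edgeR adjusted p = 0.0690), the 3 weeks call without adult replicate 1 (0.0617) and the 1 week call without either slice 1 week library or adult replicate 1 (0.0548 to 0.0775). *Ly96* was higher in *in vitro* than after 3 weeks by 0.81 (SE 0.25, edgeR adjusted p = 0.0281), a call lost without *in vitro* replicate 1 or slice 3 weeks replicate 2, when scaled by library size and when only these 2 groups were fitted (edgeR adjusted p = 0.0502 to 0.111).

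*Tlr4*, the signalling receptor for lipopolysaccharide, was also lower in the slice groups than in adult. Its levels were 21.4 and 20.9 CPM in the adult libraries, 21.2 and 19.9 in *in vitro*, 10.5 and 11.8 in slice 1 day, 4.94 and 10.2 after 1 week and 10.3 and 11.9 after 3 weeks. Adult and *in vitro* overlapped, and the slice libraries lay below both. Against adult the log2 fold change was −0.91 after 1 day (SE 0.19, edgeR adjusted p = 0.00276), −1.69 after 1 week (SE 0.34, edgeR adjusted p = 0.00421) and −0.92 after 3 weeks (SE 0.19, edgeR adjusted p = 0.00310). It was −0.04 in *in vitro* (SE 0.18, edgeR adjusted p = 0.873). In *in vitro* it was higher than after 1 day by 0.87 (SE 0.19, edgeR adjusted p = 0.00558) and than after 3 weeks by 0.88 (SE 0.18, edgeR adjusted p = 0.00375). The 1 week value rests on 5 and 4 UMIs, and without slice 1 week replicate 1 it was −1.02 (edgeR adjusted p = 0.320). With every cell thinned to 1500 UMIs no *Tlr4* call was kept. The log2 fold changes against adult were then from −2.55 to −0.33 in the slices, and *in vitro* had 0.29 against 1 day (edgeR adjusted p = 0.555) and 0.53 against 3 weeks (edgeR adjusted p = 0.155).

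*Tlr2*, the surface receptor for bacterial lipoproteins, changed in the opposite direction late in slice culture. It stood at 99.98 and 96.2 CPM in the adult libraries, 77.4 and 51.0 in *in vitro*, 107 and 123 in slice 1 day, 118 and 99.8 after 1 week and 241 and 143 after 3 weeks. The 3 weeks libraries were above all others, with a wide gap between them, and the *in vitro* libraries were below all others. After 3 weeks the log2 fold change was 0.96 against adult (SE 0.25, edgeR adjusted p = 0.0122) and 0.74 against 1 day (SE 0.25, edgeR adjusted p = 0.0495). The call against adult was lost without adult replicate 2 (edgeR adjusted p = 0.0663) and without slice 3 weeks replicate 1, where the log2 fold change was 0.58 (edgeR adjusted p = 0.0618), and the call against 1 day was lost under 15 of 22 alternatives.

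Between *in vitro* and slice 3 weeks *Tlr2* differed by −1.58 (SE 0.26, edgeR adjusted p = 0.000975), or 2.98-fold. At 64.2 ± 18.7 CPM in *in vitro* and 98.1 ± 2.67 in adult, its log2 fold change of −0.61 was not called (edgeR adjusted p = 0.0600). It was called with the replicate number as a block (−0.64, edgeR adjusted p = 0.0299), when scaled by library size (−0.92, edgeR adjusted p = 0.0109) and without *in vitro* replicate 1 (−0.82, edgeR adjusted p = 0.0445). Against slice 1 day *in vitro* differed by −0.84 (SE 0.25, edgeR adjusted p = 0.0260), a call lost without *in vitro* replicate 2, slice 1 day replicate 2 or either or both slice 1 week libraries (edgeR adjusted p = 0.0502 to 0.264). *Tlr1*, whose product pairs with TLR2 to bind triacylated lipoproteins, was at 17.9 and 15.3 CPM in the adult libraries, 17.0 and 14.5 in *in vitro*, 25.2 and 19.8 in slice 1 day, 16.8 and 5.12 after 1 week and 14.4 and 8.38 after 3 weeks. It was called in 1 of 9 comparisons, as lower after 3 weeks than after 1 day (log2 fold change −1.005, SE 0.30, edgeR adjusted p = 0.0278), which was lost under 5 alternatives. These were the fit of only these 2 groups (edgeR adjusted p = 0.0663), leaving out either slice 1 day library or slice 3 weeks replicate 2 (0.0716 to 0.138), and thinning to 1500 UMIs, where the value was −0.61 (edgeR adjusted p = 0.290). Without slice 3 weeks replicate 1 *Tlr1* was also called lower after 3 weeks than in adult (−0.95, edgeR adjusted p = 0.0140, against −0.59 with both libraries). The value of *in vitro* against 3 weeks was 0.51 (edgeR adjusted p = 0.182), and was called under 3 alternatives (0.61 to 0.99, edgeR adjusted p = 0.0102 to 0.0415).

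*Tlr3*, the endosomal receptor for double-stranded RNA, was lower in each cultured group than in adult. It was at 22.3 and 14.3 CPM in the adult libraries, 5.49 and 4.995 in *in vitro*, 1.83 and 1.65 in slice 1 day, 1.98 and 5.12 after 1 week and 5.17 and 6.85 after 3 weeks. Both adult libraries were above all 8 cultured libraries, and the day 1 libraries were the lowest. The log2 fold change against adult was −1.81 in *in vitro* (SE 0.27, edgeR adjusted p = 0.000217), −3.42 after 1 day (SE 0.35, edgeR adjusted p = 2.66e-05), −2.67 after 1 week (SE 0.56, edgeR adjusted p = 0.00523) and −1.59 after 3 weeks (SE 0.27, edgeR adjusted p = 0.00124). From 1 day to 3 weeks it rose by 1.83 (SE 0.36, edgeR adjusted p = 0.00456), and *in vitro* was higher than 1 day by 1.61 (SE 0.36, edgeR adjusted p = 0.00581). Both calls were lost without slice 1 day replicate 2 (edgeR adjusted p = 0.0698 and 0.0776) and with cells thinned to 1500 UMIs (edgeR adjusted p = 0.108 and 0.189). The slice 1 day libraries held 7 and 16 *Tlr3* UMIs and the 1 week libraries 2 each, and without slice 1 week replicate 1 the 1 week value against adult was −1.82 (edgeR adjusted p = 0.181). With thinned cells it was −2.48 and was also not called (edgeR adjusted p = 0.194).

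*Tlr7*, the receptor for single-stranded RNA, was lowest in slice 1 day. Its levels were 54.4 and 41.6 CPM in the adult libraries, 56.7 and 56.1 in *in vitro*, 27.8 and 23.1 after 1 day, 48.4 and 40.9 after 1 week and 49.2 and 64.8 after 3 weeks. The day 1 libraries lay below the other 8 libraries, whose groups overlapped with adult except for *in vitro*. The log2 fold change after 1 day was −0.94 against adult (SE 0.19, edgeR adjusted p = 0.00186). From 1 day it was 0.86 higher after 1 week (SE 0.24, edgeR adjusted p = 0.0469) and 1.18 higher after 3 weeks (SE 0.19, edgeR adjusted p = 0.00152), and in *in vitro* it was 1.16 higher than after 1 day (SE 0.19, edgeR adjusted p = 0.000954). The rise after 1 week was lost under 11 of 21 alternatives. Against adult, *in vitro*, 1 week and 3 weeks gave 0.23, −0.07 and 0.25 and were not called.

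*Tlr13*, the mouse receptor for bacterial ribosomal RNA, was highest in *in vitro*. It was at 34.4 and 27.3 CPM in the adult libraries, 51.4 and 50.4 in *in vitro*, 33.0 and 27.1 in slice 1 day, 23.7 and 15.4 after 1 week and 33.8 and 29.7 after 3 weeks. The *in vitro* libraries stood above the other 8, and adult, 1 day and 3 weeks overlapped. In *in vitro* the log2 fold change was 0.72 against adult (SE 0.17, edgeR adjusted p = 0.00404), 0.77 against 1 day (SE 0.17, edgeR adjusted p = 0.00596) and 0.69 against 3 weeks (SE 0.17, edgeR adjusted p = 0.00878). Scaled by library size and not by TMM, the value against adult was 0.41 (edgeR adjusted p = 0.0507) and that against 3 weeks 0.58 (edgeR adjusted p = 0.0185, under the 1.5-fold limit), and neither was called. Without adult replicate 2 the value against adult was 0.56 (edgeR adjusted p = 0.0463), under the same limit. Library size alone moved the median of all genes by −0.30. Without slice 1 day replicate 2 the call against 1 day was lost (edgeR adjusted p = 0.0667). No slice group was called against adult, except that scaling by library size called *Tlr13* lower after 1 week (−0.78, edgeR adjusted p = 0.0349, against −0.56 and 0.125 with TMM).

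*Tlr9*, the receptor for unmethylated CpG DNA, was barely detected. The libraries held 13 and 13 UMIs in the adult group, 14 and 16 in *in vitro*, 0 and 12 in slice 1 day, 2 and 0 after 1 week and 7 and 16 after 3 weeks. A count of 0 allows up to 0.819 CPM in slice 1 day replicate 1 and 7.78 CPM in slice 1 week replicate 2, before TMM scaling. The highest value of a library was 1.98 CPM, and *Tlr9* was called in 0 of 9 comparisons by edgeR, with 0 unadjusted p under 0.05, and in 0 by DESeq2. Against adult, *in vitro* had a log2 fold change of −1.48 (SE 0.70, edgeR adjusted p = 0.0970) and was not called. It was called when scaled by library size (−1.78, edgeR adjusted p = 0.0470), when only these 2 groups were fitted (−1.34, edgeR adjusted p = 0.0335) and without cells holding neutrophil markers (−1.37, edgeR adjusted p = 0.0406) or markers of other immune cells (−1.37, edgeR adjusted p = 0.0405).

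*Myd88* encodes the adaptor that carries the signal of most of these receptors. Its levels were 56.4 and 48.2 CPM in the adult libraries, 34.3 and 30.9 in *in vitro*, 55.6 and 53.8 in slice 1 day, 30.6 and 17.9 after 1 week and 22.6 and 13.2 after 3 weeks. Adult and 1 day overlapped, and every library of the other 3 groups lay below them. After 3 weeks the log2 fold change was −1.58 against adult (SE 0.24, edgeR adjusted p = 0.000515) and −1.64 against 1 day (SE 0.24, edgeR adjusted p = 0.000994), which is a level 2.99-fold and 3.12-fold lower. At 1 day it was 0.06 against adult (edgeR adjusted p = 0.841).

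At 1 week the *Myd88* value against adult was −0.99 (SE 0.32, edgeR adjusted p = 0.0383), and the call was lost under 9 of 21 alternatives. In *in vitro* it was −0.68 against adult (SE 0.22, edgeR adjusted p = 0.0231), which was lost under 16 of 24 alternatives, DESeq2 among them. *In vitro* was higher than slice 3 weeks by 0.90 (SE 0.23, edgeR adjusted p = 0.0116) and differed from slice 1 day by −0.74 (SE 0.23, edgeR adjusted p = 0.0263). The first was lost without *in vitro* replicate 1 (edgeR adjusted p = 0.0521) and when only these 2 groups were fitted (0.0523), and the second without any 1 library of either group (0.0946 to 0.195). In slice 1 day replicate 1 the neutrophil-rich cells held 146 unscaled CPM of *Myd88* and the cells rich in neither set of markers 53.0 unscaled CPM. In slice 1 day replicate 2, which had more cells, the values were 65.8 and 52.7 unscaled CPM, and in slice 1 week replicate 1 they were 47.4 and 25.8 unscaled CPM. Without the neutrophil-rich cells the 1 week value against adult was −1.18 (edgeR adjusted p = 0.0173). From 1 day to 1 week the *Myd88* value was −1.05 (SE 0.32, edgeR adjusted p = 0.0635) and was not called, but it was called under 11 alternatives, among them DESeq2 (−1.06, adjusted p = 0.0388), the replicate block (−1.13, edgeR adjusted p = 0.0304) and the fit without neutrophil-rich cells (−1.16, edgeR adjusted p = 0.0388).

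Adult and slice 3 weeks each had 1 library under either of the 2 study labels, which allowed the comparison within a label. For *Tlr2* the log2 ratio of slice 3 weeks to adult was 1.27 between the first replicates and 0.57 between the second. For *Myd88* it was −1.32 and −1.87, for *Ly96* −0.90 and −1.39, for *Tlr4* −1.05 and −0.81 and for *Tlr3* −2.11 and −1.06. Each called member thus kept its direction within both labels. *Cd14* had 0.26 and −0.39, and *Tlr7* −0.15 and 0.64, with opposite signs. The other cultured groups had a single label, and within it adult had 1 library.

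The genes most like 3 members were sought as those with the smallest root mean square difference of centred log2(CPM + 1) over the 10 libraries. For *Tlr7* they were *Heatr5a* (0.12), *Ddhd2* (0.16) and *Mthfs* (0.16), and for *Tlr2* they were *Adam15* (0.19), *Apmap* (0.29) and *St5* (0.30). *Adam15* stood at 294 and 226 CPM in slice 3 weeks, 163 and 165 in the adult libraries and 105 and 102 in *in vitro*. For *Cd14* they were *Ccdc134* (0.20), *Csrnp1* (0.20) and *Gm10110* (0.22). *Ccdc134* was at 17.6 and 20.1 CPM in slice 1 day, 8.64 and 6.44 in the adult libraries and 2.86 and 3.70 in *in vitro*.

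The pathway lists are read against the shares of all genes called higher and lower than adult, which were 22.4% and 28.5% in *in vitro*, 24.9% and 25.3% for slice 1 day, 15.0% and 13.6% for 1 week and 17.9% and 17.5% for 3 weeks. The all-gene median log2 fold changes were −0.11, −0.06, −0.08 and −0.03 in this order. Among 9 other receptor and co-receptor genes, 8 were tested. In *in vitro* 3 rose and 5 fell (37.5% and 62.5%), in slice 1 day 2 rose and 3 fell (25% and 37.5%), after 1 week 2 rose and 2 fell (25% and 25%), and after 3 weeks 4 rose and 3 fell (50% and 37.5%). The median log2 fold changes were −1.45, −0.41, −0.40 and 0.38. *Cd36*, a scavenger receptor that works with TLR2, rose in each, with 0.366 and 0.258 CPM in the adult libraries, 187 and 282 in *in vitro*, 181 and 190 after 1 day, 25.7 and 25.6 after 1 week and 10.5 and 9.04 after 3 weeks. *Ly86*, which encodes the partner of the TLR4-like receptor CD180, fell in *in vitro* (log2 fold change −1.34, SE 0.22, edgeR adjusted p = 0.000506) and rose after 3 weeks (0.77, SE 0.22, edgeR adjusted p = 0.0182). *Cd180* fell in *in vitro* and after 1 week (log2 fold change −1.85 and −0.88, edgeR adjusted p = 6.71e-05 and 0.0204).

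Of 8 genes for the folding and transport of Toll-like receptors, 7 were tested, and the number that rose and fell was 1 and 3 in *in vitro* and after 1 day (14.3% and 42.9%), and 1 and 2 after 1 week and after 3 weeks (14.3% and 28.6%). Their median log2 fold changes were −0.27, −0.32, −0.48 and 0.19. *Unc93b1*, the chaperone that carries endosomal receptors out of the endoplasmic reticulum, was at 1504 and 1577 CPM in the adult libraries, 726 and 606 in *in vitro*, 491 and 431 after 1 day, 801 and 993 after 1 week and 1068 and 941 after 3 weeks. It was below both adult libraries in all 8 cultured libraries and was called lower in the 4 comparisons, with log2 fold changes from −1.74 after 1 day to −0.62 after 3 weeks. *Cnpy3*, a folding factor of Toll-like receptors, was also called lower in each (−0.91 in *in vitro*, and −1.17, −1.07 and −0.65 in the slices by time), and *Slc15a4*, an endosomal transporter needed for TLR7 and TLR9 signals, fell in *in vitro* (log2 fold change −1.001) and after 1 day (−0.94). *Lrrc59* rose in each, from 0.61 after 3 weeks to 2.28 after 1 day.

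Of 25 genes of the signalling chain, 4 rose and 10 fell in *in vitro* (16% and 40%), 3 and 6 after 1 day (12% and 24%), 1 and 6 after 1 week (4% and 24%), and 1 and 5 after 3 weeks (4% and 20%). The share that fell after 1 day and after 3 weeks was near that of all genes. The list had medians of 0.00, −0.21, −0.50 and −0.22. *Nfkb1*, which encodes the p105 and p50 subunit of NF-kB, was at 103 and 102 CPM in the adult libraries, 44.8 and 35.3 in *in vitro*, 29.4 and 30.1 after 1 day, 53.4 and 58.8 after 1 week and 41.8 and 37.5 after 3 weeks. It was lower in all 8 cultured libraries than in adult and was called in the 4 comparisons (log2 fold change −1.36, −1.79, −0.89 and −1.38). *Irak2*, a kinase downstream of MYD88, fell in *in vitro*, after 1 day and after 1 week (−1.66, −1.47 and −1.01), and *Irf5*, a transcription factor downstream of MYD88, fell in all 4 groups (−0.98 in *in vitro*, −0.62 after 1 day, −0.82 after 1 week and −0.78 after 3 weeks).

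*Ikbke*, a kinase that acts on interferon regulatory factors, had 1 UMI over the adult libraries and was at 40.4 and 32.5 CPM in *in vitro*, 19.9 and 26.3 after 1 day, 14.8 and 15.4 after 1 week and 14.7 and 13.8 after 3 weeks. The ratio to adult was 775 in *in vitro*, with a 95% Poisson interval of 139 to 30620 for the adult count, and 302 after 3 weeks (54.1 to 11909), which cover counting error only. *Irf7*, a transcription factor induced by interferon, rose in *in vitro* by 1.45 (SE 0.35, edgeR adjusted p = 0.00534) and after 1 day by 1.88 (SE 0.37, edgeR adjusted p = 0.00157).

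The list of inhibitors held 14 genes that act on the pathway or on related cytokine signals, *Il1rn* among them. Of these, 3 rose and 4 fell in *in vitro* (21.4% and 28.6%), 5 and 2 after 1 day (35.7% and 14.3%), 3 and 1 after 1 week (21.4% and 7.14%) and 2 and 2 after 3 weeks (14.3% and 14.3%). The *in vitro* shares were near those of all genes. The list had medians of −0.13, 0.41, −0.03 and 0.25. *Socs3*, a suppressor of cytokine signals, was at 24.5 and 37.5 CPM in the adult libraries, 8.25 and 7.41 in *in vitro* and 87.0 and 70.9 after 1 day. It fell in *in vitro* (log2 fold change −1.97, SE 0.23, edgeR adjusted p = 4.23e-05) and rose after 1 day by 1.35 (SE 0.22, edgeR adjusted p = 0.000537). *Tnip1* rose in *in vitro* by 1.01 on the log2 scale (edgeR adjusted p = 0.00784). *Tnip2* rose after 1 day by 0.94 and after 3 weeks by 0.75 (edgeR adjusted p = 0.000862 and 0.00460).

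Of 21 genes that Toll-like receptors induce 16 were tested, and 6 rose and 4 fell in *in vitro* (37.5% and 25%), 11 and 3 after 1 day (68.8% and 18.8%), 8 and 3 after 1 week (50% and 18.8%) and 8 and 1 after 3 weeks (50% and 6.25%). The share that fell in *in vitro* was near that of all genes. The list had medians of 0.95, 3.43, 1.42 and 1.58. *Il1b*, which encodes interleukin-1 beta, was at 1.68 and 1.29 CPM in the adult libraries, 23.2 and 8.48 in *in vitro*, 71.8 and 56.3 after 1 day, 23.7 and 5.12 after 1 week and 5.82 and 4.84 after 3 weeks, and the chemokine gene *Ccl3* was at 38.2 and 49.2 CPM in adult and 870 and 732 after 3 weeks. *Ccl3* was called higher in all 4 groups (log2 fold change 2.07 in *in vitro*, 4.12 after 1 day, 2.88 after 1 week and 4.20 after 3 weeks). *Cxcl2*, which encodes a chemokine for neutrophils, had 0 UMIs in adult. It was at 12.6 and 4.27 CPM in *in vitro*, 95.4 and 68.5 after 1 day, 16.8 and 5.12 after 1 week and 1.16 and 1.26 after 3 weeks. Against a floor of 3 counts over both adult libraries it was at least 58.1-fold higher in *in vitro*, 543-fold after 1 day, 96.6-fold after 1 week and 8.80-fold after 3 weeks. These bounds pool the 2 libraries of a group. The neutrophil markers were also highest after 1 day and in slice 1 week replicate 1, and their part in these counts was not tested.

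*Il1a*, which encodes interleukin-1 alpha, moved the other way. It was at 86.9 and 71.1 CPM in the adult libraries, 1.35 and 0.786 in *in vitro*, 35.4 and 26.1 after 1 day, 13.8 and 2.56 after 1 week and 22.9 and 23.2 after 3 weeks, and was called lower in each (log2 fold change −6.21, −1.38, −2.93 and −1.78). *Icam1*, which encodes an adhesion molecule, fell in *in vitro*, after 1 day and after 1 week (−1.82, −0.73 and −1.18). *Cxcl10* fell in *in vitro* (log2 fold change −2.97, edgeR adjusted p = 0.0136), but its adult libraries were at 35.6 and 1.16 CPM.

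**Figure D4:**
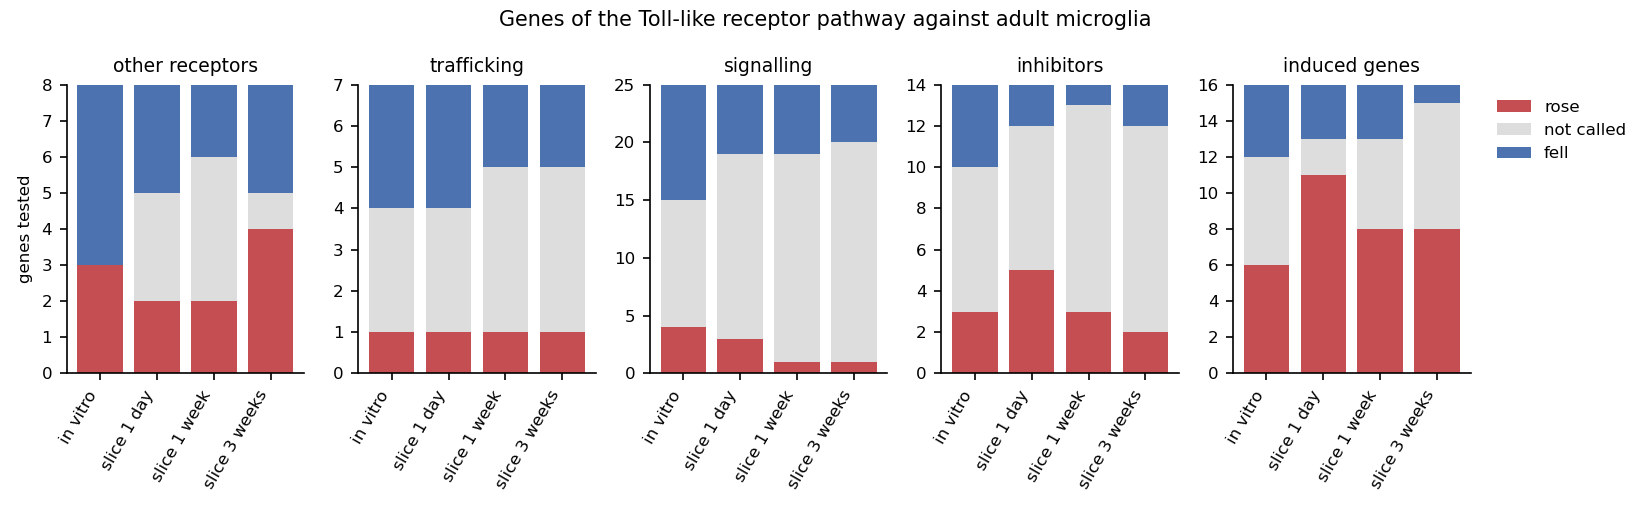
Number of genes tested (y axis) that were called higher (red), called lower (blue) or not called (grey) against adult in each cultured group, for 5 lists of pathway genes, with a y axis that ends at the number tested. The induced genes hold the most rises, 11 of 16 in slice 1 day (68.8%, beside 24.9% of all genes). Among the signalling genes falls outnumber rises in each group. Their share that fell was 40% in *in vitro*, 24% after 1 day, 24% after 1 week and 20% after 3 weeks. Of all genes, 28.5%, 25.3%, 13.6% and 17.5% fell in this order.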

How the data were processed

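Microglia of 5 groups with 2 libraries each were profiled by 10x Genomics 3′ single cell RNA sequencing. The authors deposited 1 table per library, with an unnormalised UMI count for each gene in each barcode, and the submitters' processing notes name Cell Ranger 1.3.0 and mm10. Alignment, cell calling and UMI collapsing were done upstream. Following the limits in the study's methods, 578 of 19637 barcodes were dropped, for a mitochondrial share above 5%, fewer than 400 genes or more than 30000 UMIs. The study states fewer cells for its microglia samples, so the cells kept here, neutrophil-rich cells included, are not its set. No doublet caller was run. Counts were summed per library, since cells are not replicates, and fitted with edgeR 4.0.16 in R 4.3.3 (glmQLFit and glmQLFTest with TMM). All 10 libraries shared 1 model, after filterByExpr at 10 counts, which gave a biological coefficient of variation of 18.3%. p-values were adjusted by Benjamini-Hochberg over the 12157 genes tested. The study calls the samples of each group independent, but neither it nor the labels say whether they came from separate animals or cultures, so p-values measure the spread between libraries, which may be technical. Depth ran from 385373 to 39689540 UMIs, and the slice 1 week libraries are the least precise.

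The members and gene lists were chosen with earlier results of these data known. All members were named. From 5 pathway lists, the 2 largest called rises and 2 largest called falls against adult whose average log2 CPM reached 4 were named, and the nearest 3 genes in pattern were named for *Cd14*, *Tlr2* and *Tlr7*. No list was tested as a set. A permutation test of 1 gene between 2 groups of 2 libraries cannot reach 0.05, and none was used. Alternatives included DESeq2 1.42.0, other scaling, filters, covariates, thinning to 1500 UMIs and leaving out libraries or cells. Tables were handled in Python 3.11.15 with pandas 2.3.3, and gene positions were taken from GENCODE vM21 and RefSeq. The procedure was tested on simulated counts.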

Additional observations from a re-analysis of the deposited data

How the results depend on the processing

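The members gave 40 calls over 9 comparisons. No called value changed sign under any alternative run, 15 calls were kept under all of them, and 25 were lost under at least 1. The kept calls include *Tlr3* against adult in *in vitro*, at 1 day and at 3 weeks, *Tlr7* against adult at 1 day, *Myd88* against adult at 3 weeks, and every call of *Cd14*. The number of members called was 4 in *in vitro* against adult (3 to 4 with 1 library left out), 5 at slice 1 day (4 to 5), 4 at 1 week (0 to 4) and 5 at 3 weeks (4 to 5). It was 2 for 1 week against 1 day (1 to 3), 6 for 3 weeks against 1 day (3 to 6), 0 for 3 weeks against 1 week (0 to 1), 6 for *in vitro* against 3 weeks (4 to 7) and 8 for *in vitro* against 1 day (3 to 8). For 1 week against adult 0 calls were left without slice 1 week replicate 1, 2 without slice 1 week replicate 2 and 2 without adult replicate 1. Without any 1 library of *in vitro*, slice 1 day or slice 1 week, 1 call was left for 1 week against 1 day, and without either slice 3 weeks library 1 was made for 3 weeks against 1 week (*Myd88* without replicate 1, *Tlr2* without replicate 2). Without slice 1 day replicate 2, 3 calls were left for 3 weeks against 1 day and 3 for *in vitro* against 1 day. The lone library of such a group was assumed to vary like the others. Thinning to 1500 UMIs gave 1 call for 1 week against adult, 1 for 1 week against 1 day and 3 for 3 weeks against 1 day. Over all genes, thinning gave 1651, 166 and 2129 calls in these 3 comparisons, against 3472, 1235 and 3246 in the main fit. Without the filter on low counts, 1 member, *Tlr2*, was called at 3 weeks against 1 week. With the replicate block, which pairs libraries by a number alone (correlations of replicate differences −0.13 to 0.12), 5 members were called in *in vitro* against adult, with *Tlr2* gained. For 1 week against 1 day *Tlr7* was lost (edgeR adjusted p = 0.0668) and *Myd88* gained (edgeR adjusted p = 0.0304), which left the count at 2. The other 7 counts were the same, and 1 call was lost in all. Rules on neutrophil and immune markers took out 74.1% to 100% of cells in 3 slice libraries, so these were run for adult, *in vitro* and slice 3 weeks only. The alternatives without neutrophil-rich or monocyte-rich cells and without both slice 1 week libraries were chosen after seeing the data. Scaling by library size only moved the median log2 fold change of all genes against adult by −0.30 in *in vitro*, −0.12 at 1 day, −0.22 at 1 week and −0.20 at 3 weeks. The causes of these differences were not tested. *Tlr9* in *in vitro* against adult was called under 4 alternatives (edgeR adjusted p = 0.0335 to 0.0470). Values of *Tlr9* in every group, and of *Tlr3* and *Tlr4* at 1 week, rest on few UMIs.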
